A study of Homo sapiens with 6 samples.

Results

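YAP1, its paralog WWTR1 (the gene for TAZ), the 4 TEAD transcription factors and 4 genes that answer to them or feed back on them were followed in U87 cells, an established human glioma line, with and without a short hairpin RNA (shRNA) against PCGF1. Members were every probe set of the array whose annotation gives exactly 1 gene symbol and that symbol is YAP1, WWTR1, TEAD1, TEAD2, TEAD3, TEAD4, ANKRD1, AMOTL2, LATS2 or AJUBA. This gave 30 of the 49293 probe sets tested and 10 of the 18132 genes. Per the labels, 3 arrays carried RNA of cells given a PCGF1-shRNA lentivirus and 3 carried RNA of cells given an NC (negative control) lentivirus. Both groups are U87 cells kept in DMEM with fetal bovine serum, and both carry a lentivirus. PCGF1 is a RING finger protein of a variant Polycomb repressive complex. The sample names add T0 to each knockdown array and T1 to each control array without explaining it, so that the knockdown and whatever these marks stand for cannot be told apart. The hairpin sequence and the number of clones or cell pools are not given in the sources used here. Replicates are called biological in the labels, but nothing ties them to separate cultures. The p-values therefore rest on array-to-array spread that may be technical.

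YAP and TAZ are transcriptional co-activators that cannot bind DNA themselves and work mainly through the TEAD proteins. The Hippo kinase cascade, in which the MST kinases activate the LATS kinases, phosphorylates YAP and TAZ and holds them in the cytoplasm, while stiff substrate, spread cell shape and low cell density favour their entry into the nucleus. Their control is therefore largely at the level of protein modification and location, which an expression array does not measure, and their output is usually read from target genes such as CCN1, CCN2 and ANKRD1.

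TEAD proteins recognise a short DNA motif with the core GGAATG, whose reverse complement is CATTCC. The RefSeq promoter table for GRCh38.p14, with windows from 250 bases before to 50 bases after a transcription start, held 12 windows for 8 of the 10 genes, and TEAD1 and TEAD4 were not in it. The core was searched on both strands, overlapping matches included. It lay in 5 of the 12 windows (41.7%), 1 window each for YAP1, ANKRD1, AMOTL2, LATS2 and AJUBA, against 14% of all 35116 windows. Counted by gene, 5 of 8 members (62.5%) and 16.7% of the 27305 genes in the table had a match. Among 19 further YAP target genes of a published signature, which are taken up further on, 13 were in the table, and 6 of their 14 windows (42.9%) held the core. The windows of MYOF, RBMS3, FJX1, F3 and NT5E, which were called on the arrays, had no match. Those of CCN2 and TGFB2, also called, held the core. Among the signature genes that were not called, FOXF2, PTPN14, NUAK2 and 1 of the 2 windows of AXL held it, while IGFBP3 and CCDC80 had no match. FJX1, TGFB2 and these genes without a call were named after their values were seen. The 250 bases before the start of ANKRD1, a member with 2 matches, and of CCN2, a signature gene outside the member list with 3 matches, are shown first because the 2 genes had different calls on the arrays. The 30 bases around the match in YAP1, AMOTL2 and AJUBA follow. Capitals mark the core or its reverse complement. All run 5′ to 3′ on the strand of the gene.
ANKRD1, chr10:90921088-90921337, minus strand: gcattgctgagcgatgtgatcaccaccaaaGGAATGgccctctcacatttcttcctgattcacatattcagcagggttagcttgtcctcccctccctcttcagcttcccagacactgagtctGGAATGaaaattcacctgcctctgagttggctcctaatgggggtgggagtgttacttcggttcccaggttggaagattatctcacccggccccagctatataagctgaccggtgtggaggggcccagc
CCN2, chr6:131951373-131951622, minus strand: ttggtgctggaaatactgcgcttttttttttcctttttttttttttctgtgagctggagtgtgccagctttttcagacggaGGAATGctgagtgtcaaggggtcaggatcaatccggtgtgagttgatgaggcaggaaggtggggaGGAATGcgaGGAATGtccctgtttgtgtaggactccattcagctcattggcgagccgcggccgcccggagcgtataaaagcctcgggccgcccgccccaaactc
YAP1, chr11:102110273-102110302, plus strand: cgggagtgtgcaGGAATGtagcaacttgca
AMOTL2, chr3:134374499-134374528, minus strand: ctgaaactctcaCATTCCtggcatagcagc
AJUBA, chr14:22976884-22976913, minus strand: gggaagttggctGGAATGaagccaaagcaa
The matches of ANKRD1 begin 220 and 128 bases before the start and those of CCN2 169, 104 and 95 bases before it. The AMOTL2 match belongs to one of its 2 windows and the AJUBA match to one of 2. A match describes the letters of the window and is no measured binding site.

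The knockdown itself was visible on the arrays. PCGF1 was at -0.27, -0.13 and -0.19 in knockdown replicates 1 to 3 and at 0.13, 0.27 and 0.29 in the controls. Array values are on the log2 scale and count from the median of a probe set over the 6 arrays. They compare arrays with each other and give no absolute level. PCGF1 was left at 74.3% of control (95% interval 67.8 to 81.5%, limma, Benjamini-Hochberg adjusted p = 0.00410), and a two-sided exact permutation test gave 0.1, the smallest value that 3 against 3 arrays allow. Because the table was centred, whether U87 cells express glial markers or any of the 10 genes could not be checked against background.

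None of the 10 genes passed the test. The threshold was an adjusted p of 0.05 over all 18132 genes, and 0 members were called higher and 0 lower, where 11.0% of all genes were called, 6.36% higher and 4.63% lower. Adjusted p-values of the 10 ran from 0.0575 for AJUBA to 0.931 for TEAD2. At an unadjusted p under 0.05 by limma, 1 of the 10 stood out, AJUBA, against 26.6% of all genes. The log2 fold changes of knockdown over control ran from -0.10 for YAP1 to 0.17 for AJUBA, with 6 above and 4 below 0 and a median of 0.016, beside -0.0081 over all genes. The median size of change without regard to sign was 0.064 among the members and 0.069 among all genes. The 95% intervals, which are not adjusted for the number of genes, stayed between 84.5% and 122% of control for all 10, so that a change as large as that of PCGF1 lay outside the interval of each. A missed threshold does not show that the genes did not differ at all.

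**Figure D1:**
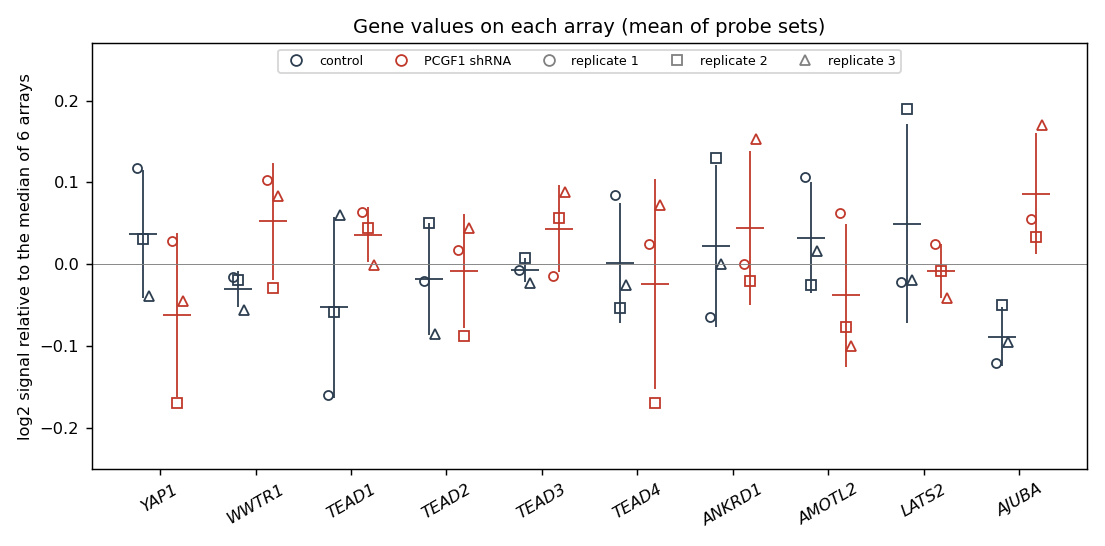
Value of each of the 10 genes on each of the 6 arrays (y axis, log2 signal relative to the median of the 6 arrays, mean over the probe sets of the gene). Control arrays are dark and knockdown arrays red, symbols give the replicate number, and lines give the mean and SD of 3 arrays; the groups overlap for each gene except AJUBA.

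Of the pair of co-activators, YAP1 was on average slightly lower and WWTR1 slightly higher in the knockdown arrays, both within the spread of the replicates. YAP1 was at 0.03, -0.17 and -0.05 in the knockdown arrays and at 0.12, 0.03 and -0.04 in the controls. Knockdown replicate 2 was the lowest array and control replicate 1 the highest, and the others mixed. The log2 fold change was -0.10 ± 0.06 (SE, adjusted p = 0.365), or 93.4% of control with an interval from 84.5 to 103%. WWTR1 was at 0.10, -0.03 and 0.08 against -0.02, -0.02 and -0.06, with knockdown replicate 2 lying among the controls. Its log2 fold change was 0.08 ± 0.05 (SE, adjusted p = 0.303), or 106% of control with an interval from 98.4 to 114%.

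The probe sets of YAP1 leaned the same way while those of WWTR1 did not. Of the 8 YAP1 probe sets, 7 had fold changes below 0 and 1 above, from -0.27 to 0.0069, and 0 were called (adjusted p 0.244 to 0.954). The lowest, 11717922_a_at, was also the most scattered of all 30 probe sets. It read -0.07, -0.68 and 0.31 in the knockdown arrays and 0.59, 0.07 and -0.28 in the controls, so the groups overlapped almost completely. Only 11717921_x_at separated the groups, at -0.01, -0.16 and -0.11 against 0.07, 0.02 and 0.01 (log2 fold change -0.12 ± 0.06, SE). The suffix _x_at, like _s_at, marks probes that can also match other transcripts. For WWTR1, 11759482_at and 11759483_at separated the groups upwards, at 0.21 ± 0.06 and 0.13 ± 0.06 (SE), while 11755099_a_at was at -0.08 ± 0.06. None of these 3 passed the test, the lowest adjusted p being 0.0941. A value of WWTR1 averaged over its probe sets thus joins readings of opposite sign.

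The TEAD genes encode the DNA-binding partners, and their differences were small. TEAD1 was at 0.06, 0.04 and -0.0008 in the knockdown arrays and at -0.16, -0.06 and 0.06 in the controls. The controls spread more widely than the knockdown arrays, and control replicate 3 lay close to the highest knockdown array. The log2 fold change was 0.09 ± 0.06 (SE, adjusted p = 0.385). TEAD2 was at 0.02, -0.09 and 0.04 against -0.02, 0.05 and -0.09, TEAD3 at -0.01, 0.06 and 0.09 against -0.01, 0.01 and -0.02, and TEAD4 at 0.02, -0.17 and 0.07 against 0.08, -0.05 and -0.02. The groups overlapped for these genes as well. Their log2 fold changes were 0.0099 ± 0.05, 0.05 ± 0.04 and -0.03 ± 0.07 (SE), and the adjusted p-values 0.931, 0.488 and 0.855.

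Within the TEAD group 1 probe set came closest to a call. TEAD1 11743817_s_at was at 0.15, 0.09 and 0.06 in the knockdown arrays and at -0.16, -0.07 and -0.06 in the controls. All knockdown arrays lay above all controls, with a log2 fold change of 0.20 ± 0.05 (SE) and an adjusted p of 0.0658, the lowest among the 30 probe sets. The other TEAD1 probe sets were at -0.05 ± 0.05 and 0.12 ± 0.14 (SE). Without the _s_at probe sets only the former is left, and the gene is then at -0.05 (adjusted p = 0.592). The 4 probe sets of TEAD2 ran from -0.11 to 0.13, 2 on each side of 0, and TEAD3 and TEAD4 have 1 probe set each.

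**Figure D2:**
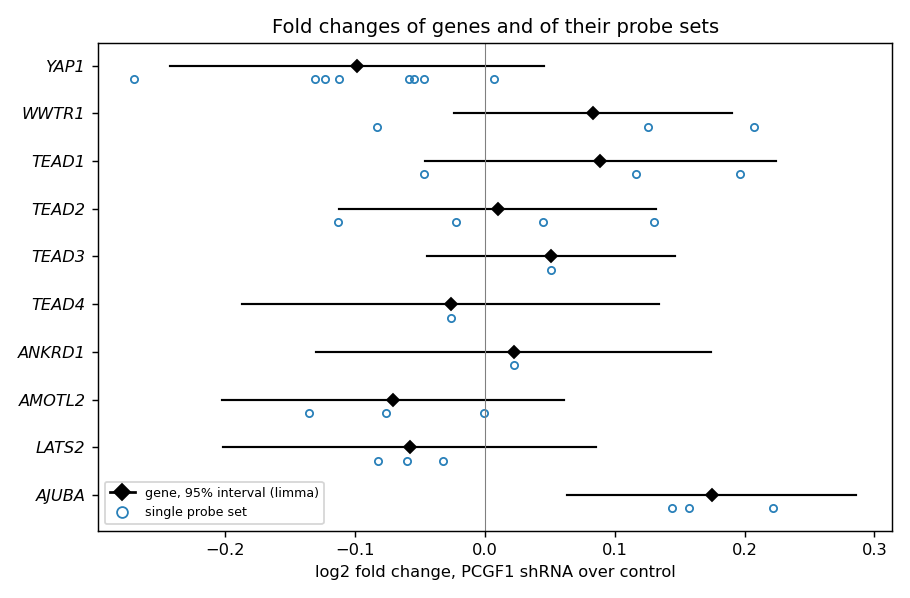
Log2 fold change of PCGF1 shRNA over control (x axis) for the 10 genes (diamonds, bars are limma 95% intervals) and for their 30 probe sets (open circles). The interval of AJUBA alone lies above 0, and probe sets of WWTR1, TEAD1 and TEAD2 fall on both sides of 0.

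ANKRD1, AMOTL2 and LATS2 are direct targets of YAP and TEAD, and none was called higher or lower. ANKRD1, which encodes a cardiac ankyrin repeat protein and is a common readout of YAP activity, was at 0.00, -0.02 and 0.15 in the knockdown arrays and at -0.06, 0.13 and 0.00 in the controls. The arrays of both groups covered the same range. Its 1 probe set gave a log2 fold change of 0.02 ± 0.07 (SE, adjusted p = 0.870), or 102% of control with an interval from 91.4 to 113%. AMOTL2, an angiomotin family protein that binds YAP at cell junctions, was at 0.06, -0.08 and -0.10 against 0.11, -0.02 and 0.02. Its log2 fold change was -0.07 ± 0.06 (SE, adjusted p = 0.486), with all 3 probe sets at or below 0, from -0.14 to -0.00070. LATS2, the kinase that phosphorylates YAP and TAZ and so closes a feedback loop, was at 0.02, -0.01 and -0.04 against -0.02, 0.19 and -0.02. Control replicate 2 was the highest array by a wide margin, and the other 5 lay between -0.04 and 0.02. Its log2 fold change of -0.06 ± 0.06 (SE, adjusted p = 0.614) was at 0.012 without that array.

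AJUBA was the member with the largest difference. It encodes a LIM domain protein that binds LATS kinases and restrains their action on YAP. It was at 0.05, 0.03 and 0.17 in the knockdown arrays and at -0.12, -0.05 and -0.09 in the controls. All 3 knockdown arrays lay above all 3 controls, the only such case among the 10 genes, where the groups did not overlap for 32.7% of all genes. The log2 fold change was 0.17 ± 0.05 (SE), or 113% of control with an interval from 104 to 122%, and the adjusted p of 0.0575 just missed the threshold. It passed with array weights (0.18, adjusted p = 0.0470) and with no other alternative, where adjusted p-values ran from 0.0596 to 0.151. The 3 AJUBA probe sets moved together. They were at 0.22 ± 0.07, 0.14 ± 0.07 and 0.16 ± 0.05 (SE), and the first and last separated the groups. By size of change AJUBA was number 2436 of the 18132 genes, so that 86.6% of genes changed no more than it did. The 3 genes with the most similar values over the 6 arrays, by root mean square difference, were MAGEB3 (0.0149), MMAA (0.0158) and DDX17 (0.0191).

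Over the probe sets the picture was the same. Of the 30 member probe sets 0 were called higher and 0 lower, where 7.24% of all probe sets were called, 4.30% higher and 2.94% lower. At an unadjusted p under 0.05 by limma there were 4, namely 1 of WWTR1, 1 of TEAD1 and 2 of AJUBA, against 23.2% of all probe sets. The groups did not overlap for 6 of the 30, with 29.5% among all probe sets. SDs over 3 arrays of one group ran from 0.0078 to 0.50 among the 30. The median standard error of the 10 genes was 0.058 on the log2 scale, against 0.050 for all genes.

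**Figure D3:**
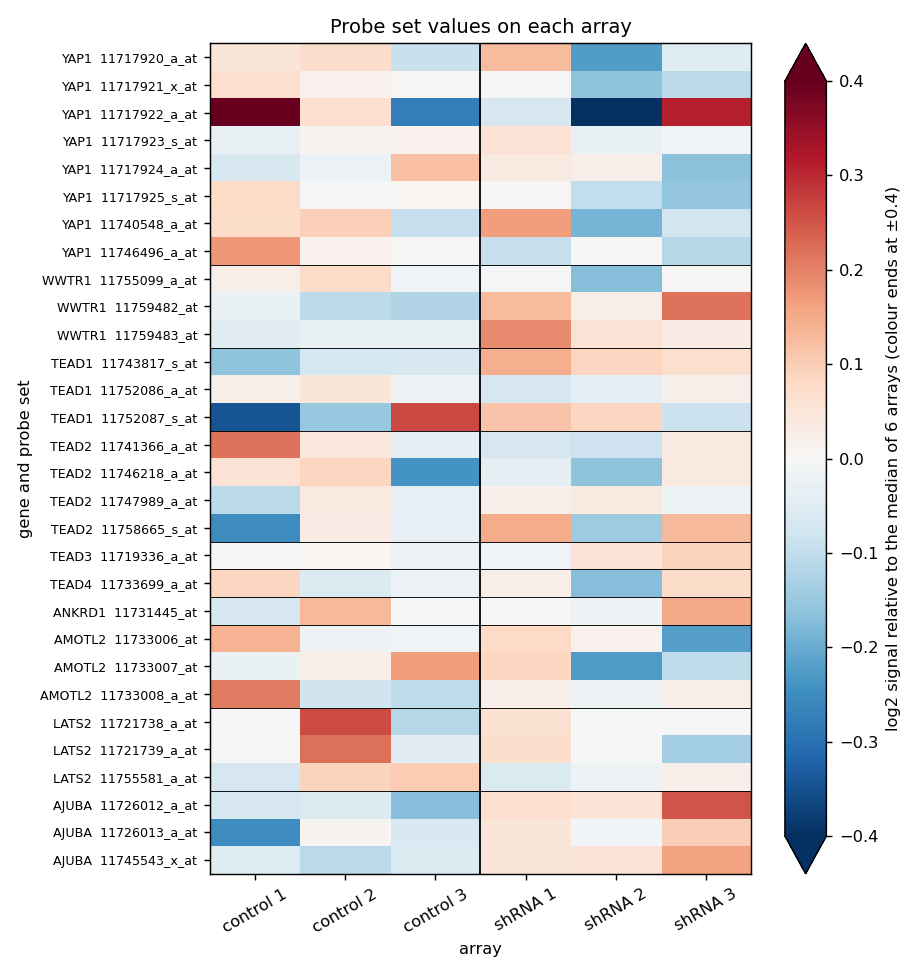
Log2 signal relative to the median of 6 arrays (colour) for the 30 probe sets (rows, grouped by gene) on the 3 control and 3 knockdown arrays (columns). The 3 AJUBA rows are paler or blue on the left and mostly red on the right, and YAP1 11717922_a_at varies strongly within both groups.

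Genes outside the member list that are counted to the pathway included called ones. In a list of 19 further YAP target genes from a published expression signature, 6 rose, 2 fell and 11 did not pass the test, where 6.36% of all genes rose and 4.63% fell. The median was 0.15, beside -0.0081 over all genes. Above 0 were 15 of 19 fold changes, where 8457 of all 18132 genes were above 0. CCN2, a secreted matricellular protein and a standard YAP readout, was at 0.14, 0.10 and 0.18 in the knockdown arrays and at -0.16, -0.13 and -0.15 in the controls. It rose by 0.29 ± 0.04 (SE, adjusted p = 0.00410), or 1.22-fold. CCN1, a related protein, was at 0.05, 0.13 and 0.08 against -0.13, -0.09 and -0.13 and rose by 0.21 ± 0.04 (SE, adjusted p = 0.0152). In both, all knockdown arrays lay above all controls. The CCN2 call held under every alternative run, while that of CCN1 was lost with the most variable probe set (adjusted p = 0.0622), without the probe sets of below-median variance (0.0627), and without knockdown replicate 3 (0.0519), control replicate 1 (0.0507) or control replicate 3 (0.0584). The fold change of CCN2 is above the upper end of the interval of ANKRD1, which was -0.13 to 0.17, but the difference between the genes was not tested. The promoter of CCN1 was not in the table used.

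RBMS3, an RNA-binding protein, and MYOF, a membrane repair protein, rose by 0.33 ± 0.05 and 0.28 ± 0.05 (SE). The members of the signature that fell were F3, the tissue factor that starts blood clotting, at -0.33 ± 0.05 (adjusted p = 0.0728 with the most variable probe set), and NT5E, a cell-surface nucleotidase, at -0.26 ± 0.04 (SE). The 2 RBMS3 probe sets differed in size, at 0.17 ± 0.09 and 0.48 ± 0.07 (SE). With the most variable probe set per gene 3 genes of the signature rose and 1 fell. Without knockdown replicate 3, control replicate 1 or control replicate 3 the number that rose was 3 each time. In a second list of 17 measured genes reported as YAP targets, 1 rose and 2 fell, with a median of -0.023, where 6.36% of all genes rose and 4.63% fell. ARHGAP29 rose by 0.18 ± 0.04 (SE, adjusted p = 0.0243), a call lost when any 1 array was left out (adjusted p 0.0543 to 0.0806). The falls were those of the growth genes MYC, at -0.58 ± 0.04 (SE, adjusted p = 0.000321), and CCND1, at -0.62 ± 0.05 (SE, adjusted p = 0.000635). Whether YAP had a part in them was not tested.

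**Figure D4:**
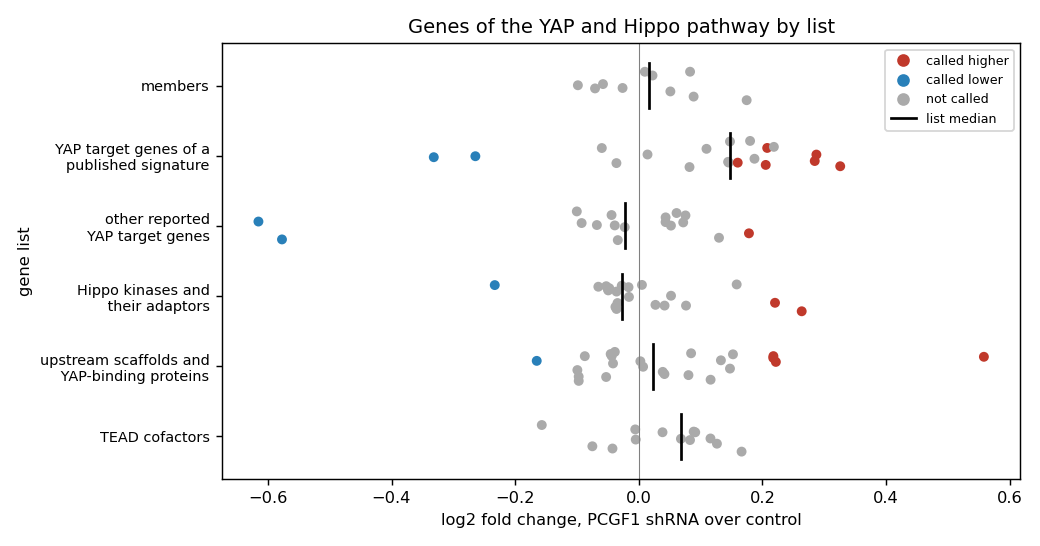
Log2 fold change of PCGF1 shRNA over control (x axis) for the genes of 6 lists; each point is a gene, red and blue points were called higher and lower, and black lines are list medians (vertical scatter has no meaning). The 10 members, in the top row, hold no called gene, and the signature genes below them have 6 called higher and 2 called lower. The TEAD cofactor row includes RAC3, matched to NCOA3 by a shared name only.

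Genes upstream of YAP were mostly without a call. Of 21 measured Hippo kinases and adaptors 2 rose, 1 fell and 18 did not pass, with a median of -0.028. These counts are near the shares of all genes that were called, 6.36% higher and 4.63% lower, and are no result about the list. MAP4K4, a kinase that can phosphorylate LATS, rose by 0.26 ± 0.06 (SE, adjusted p = 0.0275) and STK38, a kinase related to LATS, by 0.22 ± 0.05 (SE, adjusted p = 0.0315). FRMD6, a FERM domain protein that activates the cascade, fell by 0.23 ± 0.04 (SE, adjusted p = 0.0135). The calls of MAP4K4 and STK38 were also lost with the replicate block (adjusted p = 0.0616 and 0.0783). The core kinase genes STK3, STK4 and LATS1, chosen after their values were seen, were at 0.05, -0.05 and -0.05. With 1 array left out at a time, 0 to 2 kinase list genes were called higher and 0 or 1 lower, 0 higher without knockdown replicate 1, knockdown replicate 3 or any 1 control array, and 0 lower without control replicate 2 or 3.

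Of 24 scaffolds and YAP-binding proteins 4 rose, 1 fell and 19 did not pass, with a median of 0.023, again beside 6.36% of all genes called higher and 4.63% lower. FAT4, a giant cadherin placed upstream of the Hippo kinases, was at 0.38, 0.38 and 0.15 in the knockdown arrays and at -0.20, -0.29 and -0.28 in the controls. Its rise of 0.56 ± 0.07 (SE, adjusted p = 0.00281) was the largest among the pathway genes, and its 2 probe sets were at 0.34 ± 0.09 and 0.78 ± 0.10 (SE). Without the latter, an _s_at probe set, FAT4 was at 0.34 and missed the threshold (adjusted p = 0.0527). FAT1, its relative, rose by 0.22 ± 0.05 and MPDZ, a multi-PDZ scaffold, by 0.22 ± 0.04 (SE). FAT1 lost its call when any 1 array was left out (highest adjusted p 0.0773). The only FAT1 probe set was not called in the fit over probe sets (adjusted p = 0.0542). MPDZ lost it without knockdown replicate 1 or knockdown replicate 3 and without control replicate 2 or control replicate 3 (highest adjusted p 0.0579). TP53BP2, a p53-binding protein that also contacts YAP, fell by 0.17 ± 0.04 (SE, adjusted p = 0.0421), a call lost when any 1 array was left out (adjusted p 0.0709 to 0.127). None of its probe sets was called in the fit over probe sets (adjusted p 0.105 to 0.251). With 1 array left out at a time, 1 to 3 genes of the list rose, 1 without knockdown replicate 3 and 2 without knockdown replicate 1 or control replicate 2 or 3. The list of TEAD cofactors gave 13 values, of which 0 were called by limma and 3 had an unadjusted p under 0.05, with a median of 0.068. Among the 13 was RAC3, at -0.16 and not called. It was matched to the listed NCOA3 through a shared name and is a different gene, so NCOA3 itself was not measured. The median of probe sets called 1 cofactor higher. VGLL3 and VGLL4, which compete with YAP for TEAD and were chosen after their values were seen, were at 0.17 and 0.13 (adjusted p = 0.0671 and 0.0749).

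Some genes listed as cell type markers were called as well, with changes close in size to those of CCN1 and CCN2 but not all of the same sign. Among 7 fibroblast and pericyte markers 2 were called higher, PDGFRB at 0.28 ± 0.06 and CSPG4 at 0.25 ± 0.05 (SE). The list did not move as a whole, with 4 fold changes above and 3 below 0. The median log2 fold change of this list was 0.12, beside 0.15 for the signature genes, and the mean of its values was 0.045 to 0.065 in the knockdown arrays and -0.054 to -0.0038 in the controls. Among 9 leukocyte markers 2 were called lower (-0.040 to -0.015 against 0.0093 to 0.048). Of 8 endothelial markers (-0.061 to -0.018 against 0.0033 to 0.077), 10 epithelial markers (-0.048 to 0.043 against -0.030 to 0.015) and 9 glial and glioma line markers (-0.061 to 0.00075 against -0.0098 to 0.075) 0 were called by limma, and 3, 1 and 0 had an unadjusted p under 0.05. Over all genes 6.36% were called higher and 4.63% lower, and 26.6% had an unadjusted p under 0.05 by limma. The fold changes of all 8 endothelial markers were below 0, where those of 9675 of all 18132 genes were. As a sign of RNA quality, the ACTB controls at the 3′ end minus those at the 5′ end averaged 0.058 in the knockdown arrays and -0.020 in the controls, with overlapping ranges. The part of these differences in the changes of CCN1, CCN2 and the other pathway genes was not tested.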

How the data were processed

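Total RNA was extracted with Trizol and hybridised as biotin-labelled cRNA to Affymetrix arrays, per the labels' protocols. The authors deposited 1 log2 value per probe set and array, made with RMA per the submitters' processing notes, with no version given. The log base is not recorded in the table and is taken from RMA. Each probe set had been centred to a median of 0 over its 6 arrays (largest departure 4.85e-07), a step that no source describes, so depth, brightness and distance from background are unknown and precision is limited by the number of arrays.

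The 102 control probe sets were left out. Of the others, 44988 had 1 symbol in the platform annotation, 1832 several and 2473 none. A gene's value was the mean of its single-symbol probe sets. Groups of 3 were compared by limma 3.58.1 in R 4.3.3 (lmFit, eBayes, two-sided, no covariates), on all 18132 genes and separately on all 49293 probe sets, with Benjamini-Hochberg adjustment and a threshold of 0.05. The script was tested on simulated data. The members and lists were chosen with earlier results of these data known, so no p-value is given over a list. Named genes are PCGF1, the members, CCN1, CCN2, up to 3 called genes per direction and list, and the 3 genes most like the member with the largest change. Some genes of the lists are not analysed here. Alternatives were quantile normalization, median centring, the most variable probe set, leaving out _s_at and _x_at probe sets or those of below-median variance, array weights, the replicate block, each array left out and, added after seeing the data, the median of probe sets.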

Additional observations from a re-analysis of the deposited data

How the results depend on the processing

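The counts of 0 members called higher and 0 lower held over genes and probe sets under the alternatives run, except that array weights called 1 gene higher (AJUBA). PCGF1 stayed called, at -0.48 to -0.39 with 1 array left out. Without the probe sets of below-median variance 7 of the 10 members were left to test. Among members not called, signs turned as follows, the cause not being tested. TEAD1 was at -0.047 without _s_at and _x_at probe sets. TEAD2 was at -0.030 without them, at -0.0019 without those of below-median variance and at -0.023 with the median of probe sets. AMOTL2 11733008_a_at was at 0.0026 after quantile normalization and 0.022 with array weights, which also gave 0.0046 for TEAD2 11746218_a_at and -0.0022 for YAP1 11717923_s_at. With 1 array left out, log2 fold changes ranged from -0.14 to 0.014 for AMOTL2 11733006_at, from -0.056 to 0.10 for AMOTL2 11733008_a_at, from -0.032 to 0.076 for ANKRD1, from -0.032 to 0.076 for ANKRD1 11731445_at, from -0.094 to 0.012 for LATS2, from -0.11 to 0.074 for LATS2 11721738_a_at, from -0.017 to 0.29 for TEAD1 11752087_s_at, from -0.024 to 0.049 for TEAD2, from -0.13 to 0.036 for TEAD2 11746218_a_at, from -0.074 to 0.047 for TEAD4, from -0.074 to 0.047 for TEAD4 11733699_a_at, from -0.15 to 0.030 for YAP1 11717920_a_at, from -0.019 to 0.025 for YAP1 11717923_s_at, from -0.083 to 0.018 for YAP1 11717924_a_at, from -0.15 to 0.023 for YAP1 11740548_a_at, again with no call.

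The replicate numbers did not pair the arrays: deviations from the group means of arrays with the same number correlated at -0.042, -0.051 and 0.012. With the replicate block no member was called (AJUBA adjusted p = 0.108), and over all genes 596 rose and 440 fell, against 1154 and 840. The block left 0 kinase list genes called higher, 0 genes of the second target list called higher and 0 scaffold genes called lower. With the most variable probe set 1 kinase gene, 3 signature genes, 0 genes of the second target list and 2 scaffold genes rose, and 1 signature gene and 0 scaffold genes fell. Without _s_at and _x_at probe sets 0 genes of the second target list and 2 scaffold genes rose and 0 scaffold genes fell. Without the low-variance probe sets the numbers that rose were 1 for the kinases, 3 for the signature and 0 for the second target list, while 0 scaffold genes and 543 of all genes fell. The median of probe sets called 1 TEAD cofactor higher and 0 scaffold genes lower. With 1 array left out, 553 to 812 of all genes rose and 395 to 590 fell, 3 to 5 signature genes rose and 2 fell, 0 genes of the second target list rose and 2 fell, 1 to 3 scaffold genes rose and 0 fell, and 0 to 2 kinase genes rose and 0 to 1 fell.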
